A study of Mus musculus with 2 samples.

Results

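The very long introns described here are the annotated introns of 100 kb or more that were seen spliced in the embryonic mouse central nervous system. They were taken from a deposited list of splice junctions on the mm9 mouse genome, as the rows marked as annotated whose ends lie at least 100000 bases apart. By this rule 1161 introns were found among 188096 annotated junctions, or 0.617% of them, and among 1270088 junctions of any kind in the list. They belonged to 699 host genes of the Ensembl 65 gene models, of which 687 had a symbol. The introns are called long introns below, and the reads that span one from exon to exon are its junction reads.

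The tissue was central nervous system of C57BL/6J embryos at day 11.5, and polyadenylated RNA over 200 bases long was sequenced as strand-specific paired-end libraries. Each of the 2 samples was a pool of littermates of both sexes, labelled as biological replicates 1 and 2, and no part of the nervous system is named. There is 1 group, so the study holds no contrast between conditions and no test between groups is possible. The junction list gives 1 read count from each sample, but nothing ties the first or the second count to replicate 1 or 2. They are therefore called the first and second value, given one by one, and no SD is formed from them.

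An intron is removed from the primary transcript when the spliceosome joins the donor site at its 5′ end to the acceptor site at its 3′ end. RNA polymerase must transcribe the whole intron before its acceptor exists, so the largest introns delay the mature mRNA by the time that takes. Such introns are a known feature of genes for neural adhesion, axon guidance and synapses, and they often lie near the 5′ end of the gene. They can hold enhancers, alternative first exons, small unannotated exons and splice sites used in steps.

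Both libraries expressed the genes of the labelled tissue. Levels on mm10 are given in TPM, a measure scaled to transcript length and library total. All 5 neural progenitor markers and all 6 neuron markers reached 1 TPM in both. Summed levels were 3592 and 1799 TPM in replicates 1 and 2 for progenitors, and 1640 and 1300 TPM for neurons. Most of the progenitor sum was Vim, at 2643 and 1153 TPM, and all 5 progenitor markers were lower in replicate 2. RNA of other tissues was also present, at 10513 and 16547 TPM for 4 erythroid markers, 467 and 437 TPM for 4 mesenchyme markers, 103 and 426 TPM for 3 muscle markers and 765 and 307 TPM for 3 liver markers. Markers of endothelium (85.6 and 91.2 TPM) and macrophages (46.5 and 39.3 TPM) were lower. Within the mesenchyme sum, Pdgfra (18.5 and 50.8 TPM) and Prrx1 (13.6 and 54.1 TPM) were higher in replicate 2. Col1a1 (146 and 92.3 TPM) and Col3a1 (289 and 240 TPM) were lower there. The muscle regulators Myod1 and Myog stood at 0.15 and 0.40 TPM in replicate 1, against 19.4 and 34.2 TPM in replicate 2. The part of these tissues in the values of single long introns was not tested, and in bulk RNA fewer cells of a type and less RNA per cell cannot be told apart.

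Sequence across the joint shows what splicing of a long intron achieves, since bases 100 kb or more apart in the genome become neighbours in the mRNA. The joints below belong to long introns with the most reads, with an extreme length, with a read count that stood out against the rest of the gene, or with an extreme ratio between the values (Rbms3 and Nfia). Each line has the last 30 bases of the upstream exon in lower case and the first 30 bases of the downstream exon in capitals, 5′ to 3′, from GENCODE M21 transcripts on mm10. The mm9 position of each removed intron follows in the text.
Gpc3: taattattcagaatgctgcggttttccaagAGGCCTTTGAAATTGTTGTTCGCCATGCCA
Msi2: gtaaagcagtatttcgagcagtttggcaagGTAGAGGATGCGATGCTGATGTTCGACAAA
Parva: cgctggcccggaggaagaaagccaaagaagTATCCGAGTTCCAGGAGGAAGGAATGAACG
Nsmce2: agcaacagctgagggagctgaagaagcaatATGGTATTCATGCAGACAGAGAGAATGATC
Ctnna2: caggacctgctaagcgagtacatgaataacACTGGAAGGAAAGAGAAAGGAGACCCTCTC
Nlgn1: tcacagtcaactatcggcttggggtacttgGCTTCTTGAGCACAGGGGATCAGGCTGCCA
Kcnd2: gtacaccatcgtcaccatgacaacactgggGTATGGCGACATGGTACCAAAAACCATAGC
Ntm: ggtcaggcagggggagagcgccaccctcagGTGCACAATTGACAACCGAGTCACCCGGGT
Trps1: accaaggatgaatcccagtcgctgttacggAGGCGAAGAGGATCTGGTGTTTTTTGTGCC
Rbms3: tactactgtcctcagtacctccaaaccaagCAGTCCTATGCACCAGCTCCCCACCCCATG
Nfia: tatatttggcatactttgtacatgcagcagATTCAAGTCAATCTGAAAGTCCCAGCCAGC
The Gpc3 intron lay at chrX:49782312-49935973 on the minus strand. The Msi2 intron shown lay at chr11:88293557-88403556 on the minus strand, the Parva intron at chr7:119571615-119687690 and the Nsmce2 intron at chr15:59287022-59423251, both on the plus strand. The Ctnna2 intron lay at chr6:77093938-77555174 and the Nlgn1 intron at chr3:25339000-25811563, on the minus strand, and the Kcnd2 intron at chr6:21167414-21664134 on the plus strand. The introns of Ntm at chr9:28986840-29219140, Trps1 at chr15:50496356-50653650 and Rbms3 at chr9:117019237-117160844 were on the minus strand, and that of Nfia at chr4:97450305-97623064 on the plus strand.

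The long introns measured 100004 to 496721 bases, with a median of 142400 and quartiles of 117987 and 189269. Their junctions carried 74471 of 68994938 reads over annotated junctions in the first value, a share of 0.108% with an exact 95% binomial interval of 0.107 to 0.109%. In the second value they carried 62047 of 55259458 reads, or 0.112% (0.111 to 0.113%). Such intervals, here and below, cover counting error only, and the reads have no molecular identifiers. A long intron had a median of 32 reads over both values, with quartiles of 8 and 107 and a maximum of 5604. Reads were present in both values for 974 of the 1161, or 83.9%. Another 40 had reads in the first value and 147 in the second value alone, with a median of 3 reads and at most 25.

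The reads were spread over many introns. At least 1000 reads were reached by 16 long introns, at least 100 by 309 and at least 10 by 835. The 10 with the most reads took 17.4% of all reads over long introns, and they included genes of the cell surface, of transcription and of RNA regulation.

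**Figure D1:**
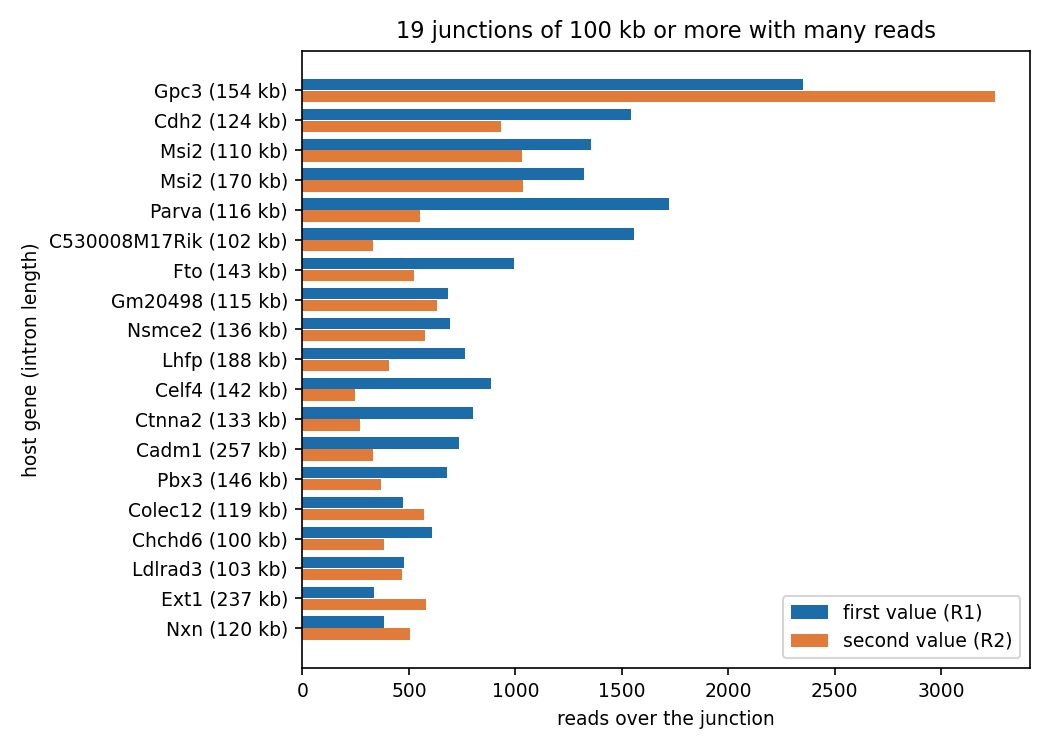
Reads over 19 of the 20 long introns with the most reads, with the first value as the upper bar and the second as the lower bar of each pair, and host gene and intron length on the vertical axis. Gpc3 stood first, with 2351 and 3253 reads, and Parva and C530008M17Rik had the most uneven pairs among the first 10.

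The leading long intron, of Gpc3, spans 153662 bases. Gpc3 encodes glypican-3, a heparan sulphate proteoglycan of the cell surface that limits growth signalling. Its junction had 2351 and 3253 reads, and the gene stood at 259 and 357 TPM in replicates 1 and 2. The long intron was used nearly as often as the rest of the gene, with 0.875 times the median of the other annotated junctions of Gpc3.

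Cdh2, the N-cadherin of neuroepithelial cells, had 1543 and 934 reads over an intron of 124009 bases, 1.19 times the rest of the gene. Msi2, an RNA-binding protein of neural progenitors, had a long intron on either side of 1 exon. The one downstream of it, of 110000 bases, had 1356 and 1033 reads, and the one upstream, of 170102 bases, had 1320 and 1036. The adjoining Msi2 introns thus agreed closely in each value, at 2.63 and 2.60 times the median of the gene's other junctions.

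Parva, which encodes a parvin that links integrins to actin, had 1721 reads in the first value and 550 in the second over an intron of 116076 bases. C530008M17Rik had 1558 and 331 reads over an intron of 101732 bases. Both introns had more reads in the first value by over 2-fold. Fto, an RNA demethylase gene, had 994 and 525 reads over an intron of 143385 bases, and Nsmce2, a SUMO ligase of the SMC5/6 complex, had 691 and 577 over 136230 bases. The gene model Gm20498, which overlaps Cox16 and shares an intron end with it, had 683 and 633 reads over 115242 bases, so its host is uncertain.

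At the other end of the length scale, the long introns of the 10 greatest lengths measured 461237 to 496721 bases. Their read counts were mostly low. Kcnd2, a subunit of A-type potassium channels, had the longest, with 14 and 25 reads over 496721 bases. Macrod2, an ADP-ribose hydrolase, had 5 and 4 reads over 491062 bases. Pde4d, a cyclic AMP phosphodiesterase, had 2 and 13 over 479455 bases, and the teneurin adhesion gene Tenm2 had 6 and 5 over 479339.

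Dpp6, an auxiliary subunit of the same potassium channels, had 37 and 18 reads over 477466 bases. Grip1, a scaffold for glutamate receptors, had 22 and 10 over 475478 bases, and the postsynaptic adhesion gene Nlgn1 had 57 and 13 over 472564 bases. Host levels were mixed, with Kcnd2 at 1.41 ± 0.311 TPM and Nlgn1 at 2.09 ± 0.566 TPM, but Macrod2 at 16.7 ± 2.62 TPM and Pde4d at 10.03 ± 0.516 TPM (SD, n = 2 each). Il1rapl1, a synaptic organiser, had 3 and 2 reads over 470851 bases, and a gene without a symbol, ENSMUSG00000061864, had 2 and 4 over 465135 bases. Ctnna2, the alpha catenin of neurons, stood apart with 437 and 302 reads over 461237 bases.

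How many annotated introns were seen depended on length only in part. Of 1738 annotated introns of 100 kb or more, 66.8% had reads, against 77.3% of 243332 annotated introns of all lengths. Levels on mm9 are given in RPKM, reads scaled to exon length and mapped reads, also with a first and a second value. No label says whether a gene's first RPKM value and a junction's first read count come from the same sample. Among genes at or above 1 RPKM in both deposited mm9 values, 90.5% of introns under 1 kb had reads, 92.3% at 1 to 10 kb, 83.6% at 10 to 100 kb, 77.3% at 100 to 200 kb and 73.0% at 200 to 500 kb. Over genes of all levels, median reads of the listed introns in the same classes were 247, 168, 78, 35 and 22. Median host levels of the listed introns fell along the same classes, at 2.50, 1.93, 1.36, 0.670 and 0.474 RPKM as the mean of both values, and the median ratio of an intron's reads to the rest of its gene was 1.04, 1.00, 0.807, 0.750 and 0.738.

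Reads over annotated introns stopped short of 500 kb. No annotated intron longer than the 496721 bases of the Kcnd2 intron was in the list, although the annotation holds 40 of them in 33 genes. Their adjoining introns averaged at least 20 reads in 20 cases. Where adjoining introns were at that level, 797 of 969 annotated introns of 100000 to 496721 bases, or 82.3%, had reads. For example, the 531142-base intron of Schip1 was not listed while its adjoining introns averaged 1497 reads, and the 551204-base intron of Ntm was not listed beside an adjoining long intron with 395. Mecom had an unlisted intron of 499532 bases beside introns averaging 550 reads.

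The unannotated junctions of the same list stepped at the same length. They numbered 2947 between 480 and 490 kb, 2916 between 490 and 500 kb, 448 between 500 and 510 kb and 131 between 510 and 520 kb. They did not end there, since 3542 of them measured 500 kb or more, the longest 2429367 bases. A further step lay at 250 kb, with 78031 unannotated junctions between 200 and 250 kb and 16700 between 250 and 300 kb, where the annotated introns showed none (66.3% and 66.0% seen). The unannotated junctions of 100 kb or more numbered 322168, had a median of 1 read and were in both values in 2.83% of cases, against 83.9% for the annotated ones. Whether the alignment used an upper limit on intron length is not given in the sources used here, so 0 reads over an intron beyond 500 kb does not show that it was not spliced.

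**Figure D2:**
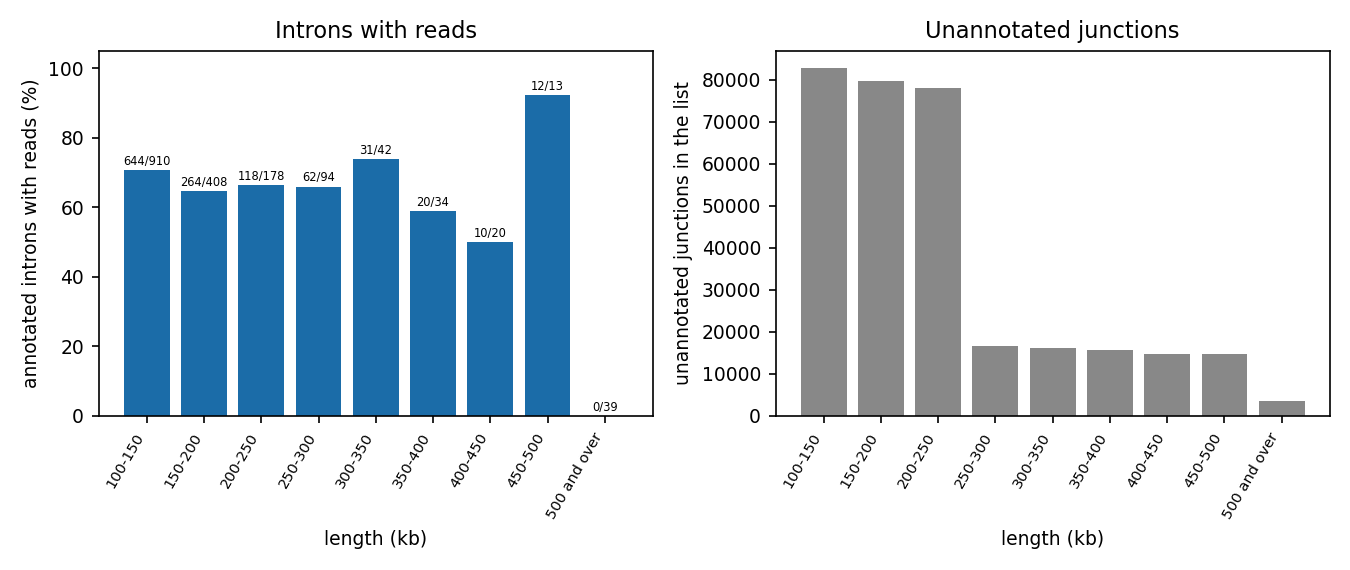
Left, percent of annotated introns of each length class (kb) with at least 1 junction read, with numbers seen and annotated above the bars. Right, unannotated junctions in the list by length. The share seen was 92.3% for 13 introns of 450 to 500 kb and 0 of 39 from 500 kb, and unannotated junctions stepped down at 250 and 500 kb.

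The members just inside the threshold were the introns of Slc24a2 at 100004 bases with 2 and 0 reads, Cox16 at 100079 bases with 4 and 6, and Slc8a3 at 100090 bases with 25 and 13. Just outside were Hivep2 at 99885 bases with 4 and 1 reads, Sorcs2 at 99699 with 0 and 1, and Tln2 at 99624 with 27 and 22.

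Many long introns were early introns. The first intron of at least 1 transcript made up 552 of the 1161, or 47.5%. The share was 20.3% over all listed annotated junctions and 38.2% over those of 10 to 100 kb. Over annotated introns with or without reads it was 48.25% at 100 to 200 kb and 48.56% at 200 to 500 kb. The share among long introns was thus close to that of the annotation at these lengths. A further 262 long introns were intron 2 and 135 intron 3 at the earliest, and 212 came later. One of the last kind was the 138093-base intron of Atrnl1, an attractin-like gene, which was intron 25 and had 561 and 272 reads.

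Where the joint could be placed in an M21 transcript, it fell in the 5′ untranslated region for 17.3% of 1068 long introns, against 6.44% of 180911 annotated junctions. It fell in coding sequence for 75.1% of long introns, against 87.6%, and in noncoding transcripts for 7.21%, against 4.75%. Introns of 10 to 100 kb had nearly the same shares as long introns, at 17.0%, 75.3% and 6.83%. Within coding sequence 44.7% of the long introns interrupted a codon after its first base, against 32.0% of all. At 10 to 100 kb the share was 36.5%, and at 200 to 500 kb it was 53.5%. Introns that fell between codons made up 38.2% of long introns, against 45.9% of all and 42.1% at 10 to 100 kb. The joints of Gpc3, Parva, Nsmce2, Nlgn1 and Nfia printed above are of the first kind and those of Msi2, Ctnna2, Trps1 and Rbms3 of the second.

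The exon ends themselves looked like those of other introns. The upstream exon ended in AG for 56.6% of long introns and 55.8% of all, and the downstream exon began with G for 45.5% and 49.0%. In the joints shown, Gpc3, Msi2 and Parva have the AG end, while the exons joined in Nsmce2 and Ctnna2 meet at other bases. The intron sequence at the splice sites was not analysed here.

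The hosts of long introns were genes of low to middle level. At least 1 RPKM in both mm9 values was reached by 251 of 699, or 35.9%, against 27.4% of 37310 genes and 50.4% of 18253 genes with any listed annotated junction. The median host had 0.585 and 0.728 RPKM, against 1.13 and 1.27 RPKM for genes with a listed junction. On mm10, 553 of 689 matched hosts reached 1 TPM in both replicates. In 219 further genes with an annotated intron of 100 kb or more no such intron was listed, and their median levels were 0.00990 and 0.0112 RPKM. Of these 34 reached 1 RPKM in both values.

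One long intron was the rule, with 458 of the 699 hosts, while 134 hosts had 2 and 107 had 3 or more. Ptprd, a receptor tyrosine phosphatase that organises synapses, had 10, of 102942 to 293130 bases. Reads over them ran from 4 to 250 and summed to 375 in the first value and 259 in the second. The 2 Ptprd introns with the most reads were also the shortest, with 116 and 134 reads over 102942 bases and 150 and 50 over 124297 bases.

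Macrod2 had 8 long introns with 190 and 56 reads in all, and the PAS-domain transcription factor gene Npas3 had 7 with 417 and 291. Dab1, the adaptor of Reelin signalling, had 6 with 472 and 173 reads, and Nrxn3, a presynaptic neurexin, had 6 with 129 and 140. In Macrod2 and Dab1 the first value was higher, and in Nrxn3 the values were close. Further genes with 6 long introns each were Lrrc4c, a netrin-G ligand (33 and 30 reads), the protocadherin genes Pcdh15 (38 and 13) and Pcdha11 (21 and 14) and Lingo2 (6 and 18). Celf2, an RNA-binding protein gene, had 5 with 430 and 432 reads, and the cadherin gene Cdh13 had 5 with 298 and 357. Long introns of 1 gene model could overlap as alternatives. Those of Pcdha11 summed to 996134 bases, while its gene model spans 257373 bases. Its long introns that could be placed in M21 each fell in a different transcript, so they are not introns of 1 isoform.

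Long introns were set against the rest of their gene as the ratio of their reads to the median of the gene's other listed annotated junctions, for hosts with at least 3 of those. The median ratio was 0.749 over 1106 long introns, with quartiles of 0.334 and 1.31, against 1.00 over 87358 introns of 1 to 10 kb, with quartiles of 0.567 and 1.59. At or above the rest of the gene stood 413 long introns, or 37.3%, against 50.5% of the introns of 1 to 10 kb. Among first introns the medians were 0.718 for long introns and 0.817 at 1 to 10 kb. Among later introns with no alternative at either end they were 0.932 and 1.10.

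Long introns with an annotated alternative had lower ratios. An alternative was counted where another annotated junction shared the donor or the acceptor, which held for 484 long introns. Where a ratio could be formed, its median was 0.437 for those with an alternative and 0.937 for 632 of the 677 without, against 0.426 and 1.09 at 1 to 10 kb. Joints in coding sequence had a median ratio of 0.864, joints in the 5′ untranslated region 0.446 and joints in noncoding transcripts 0.286. Set against the adjoining introns of the same transcripts, where these averaged at least 20 reads, the median was 0.738 for 797 long introns and 0.881 for 75816 introns of 1 to 10 kb.

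**Figure D3:**
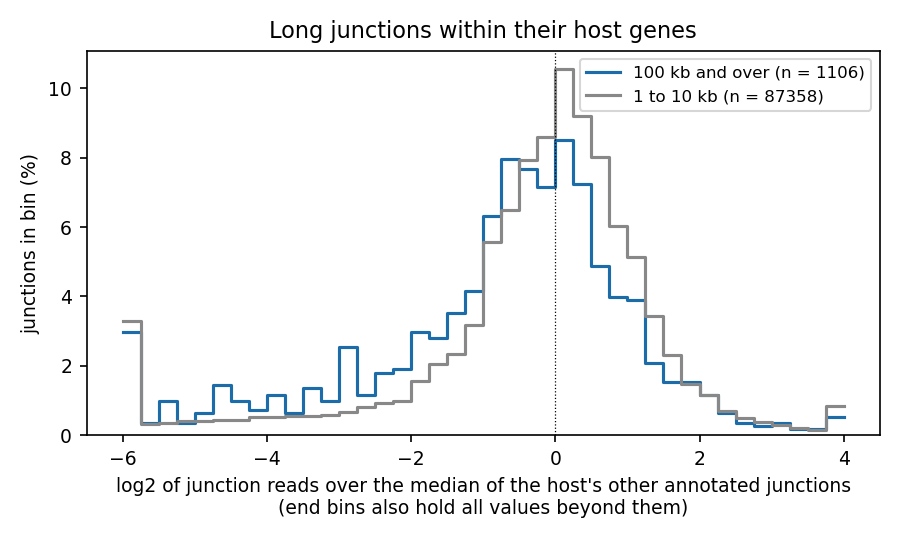
Distribution of the log2 ratio of junction reads to the median of the other annotated junctions of the host, as percent of junctions in each bin, for long introns (blue, n = 1106) and introns of 1 to 10 kb (grey, n = 87358), with the values beyond the axis gathered in the end bins. The long introns have more of their values below 0, with a median ratio of 0.749 against 1.00.

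Some long introns had far more reads than the median of their gene's other listed annotated junctions. Trps1, a zinc finger repressor, had 176 and 130 reads over 157295 bases, 11.8 times the median of its other junctions. Ntm, an IgLON adhesion protein gene, had 205 and 190 reads over 232301 bases, 9.63 times the median. Next were Bnc2, a zinc finger gene, at 5.92 times with 59 and 95 reads, Hs6st2, a heparan sulphate sulphotransferase gene, at 5.70 times with 64 and 70, and C530008M17Rik at 5.18 times. The values of Ntm were close to each other. The median of all 12 listed junctions of Ntm, the 232301-base intron included, was 73.5 reads, so its ratio depends on the junctions taken.

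The lowest ratios belonged to long introns with 1 to 4 reads in genes whose other junctions were well covered. Celf2 had 0 and 1 reads over 359493 bases, and Palld, an actin scaffold gene, had 0 and 1 over 145911 bases. Unc13b, a vesicle priming gene, had 1 and 0 reads, Fars2, a mitochondrial tRNA synthetase gene, 0 and 2, and Commd1 had 0 and 4. In all 5 the ratio lay between 0.00199 and 0.00536, and each intron had at least 2 annotated alternatives. Counts this low are close to the median of 1 read of the unannotated junctions.

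The share of a long intron is its part of all reads over annotated junctions that use its donor or its acceptor. Over the 484 with an alternative the median share was 37.0%. The long intron took at least 50% in 209, at least 90% in 84 and under 10% in 123. In Celf2 the first introns of 150742 and 163238 bases took 49.0% and 41.9% of their sites' reads, with 204 and 184 reads and 159 and 173 reads, so that a pair of long introns stood side by side as major alternatives. In Npas3 introns of 139175 and 139181 bases, which share 1 end and differ by 6 bases in length, took 58.2% and 41.8%, with 36 and 42 reads and 16 and 40 reads.

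The long introns are described below by 10 lists of gene functions, which held 438 of the 1161 long introns in 197 of the 699 hosts. Gene totals of the lists include genes without any annotated intron of 100 kb or more. Genes with such an intron numbered 13, 15, 19, 16, 32, 24, 27, 10, 39 and 13 in the lists, in the order below. Over the whole annotation they numbered 918, of which 699 were hosts. A junction was set as differing between the values at a 2-fold change in either direction, after scaling by all annotated junction reads and with at least 20 reads over both. By this rule 89 of 686 long introns (13.0%) were higher in the first value and 149 (21.7%) lower, while the share over 146315 annotated junctions was 8.67% higher and 23.6% lower. In either direction it was 34.7% of long introns, against 32.3% of all. These are differences between 2 samples of 1 group, with no replicate check.

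The direction of these counts depended on the scaling. The median log2 ratio of the first over the second value was −0.14 over the 686 long introns and −0.31 over all annotated junctions, so scaling by the median moves every ratio up by 0.31. Under that scaling 136 long introns were higher and 97 lower in the first value, and unscaled it was 137 and 96. The shares over all annotated junctions were computed only after scaling by summed reads. Whether they move in the same way under the other scalings was not tested. The higher ones made up 37.4% of those that differed after scaling by summed reads, 58.4% after scaling by the median and 58.8% without scaling. Directions of single introns below hold relative to that shift. The counts of each list below are given after scaling by summed reads only. They stand beside the shares of 8.67% higher and 23.6% lower over all annotated junctions, and differences between lists were not tested.

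**Figure D4:**
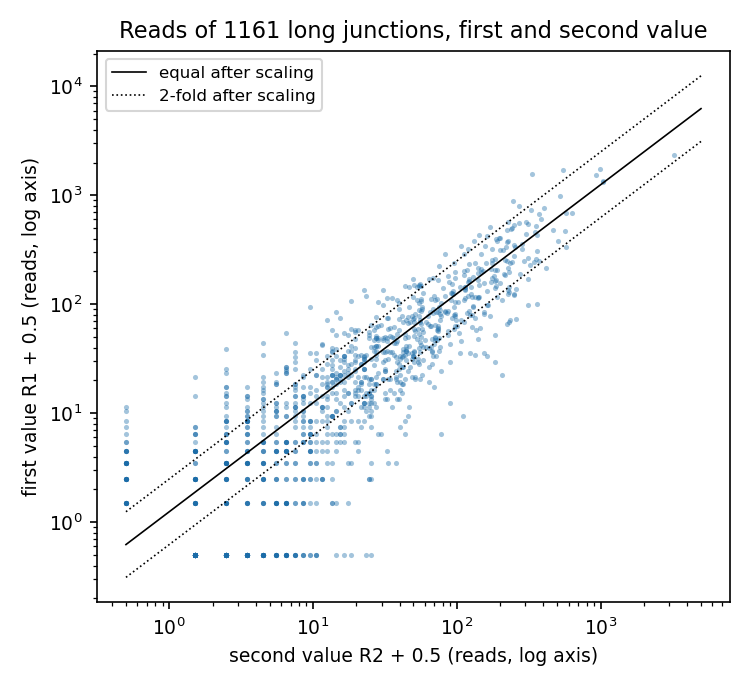
Junction reads of the 1161 long introns, first value on the vertical and second on the horizontal axis, both log axes with 0.5 added. The solid line marks equal values after scaling by summed annotated junction reads and the dotted lines a 2-fold difference, and the points widen around it at low reads.

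The spread between the values was like that of other junctions at the same depth. The SD of the log2 ratio was 1.16 over long introns and 1.06 over all annotated junctions at 20 reads or more. From 100 to under 200 reads it was 1.08 for 130 long introns and 1.04 for all, and from 500 reads it was 0.706 for 59 long introns and 0.895 for all. Even there 18.6% of the long introns differed by 2-fold, against 26.1% of all.

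Among the long introns with at least 100 reads, the lowest ratios of first to second value were in 4 genes. Rnf150, a RING finger gene, had 9 and 110 reads, a log2 ratio of −3.86 (exact 95% binomial interval −5.10 to −2.96). Of the 4 long introns of the RNA-binding protein gene Rbms3, 2 had at least 100 reads, with 22 and 205 reads over 141608 bases and 29 and 183 over 136571 bases. Their log2 ratios were −3.51 (−4.25 to −2.90) and −2.96 (−3.60 to −2.41). Sim2, a PAS-domain transcription factor, had 12 and 89 reads (−3.16), and Nfia, a nuclear factor I gene, had 33 and 162 (−2.60).

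The deposited gene levels of these hosts are given as they stand, since the introns were picked for their ratios. Rbms3 stood at 0.566 RPKM in the first mm9 value and 2.63 RPKM in the second, Rnf150 at 0.697 and 1.31, Sim2 at 0.239 and 0.660 and Nfia at 1.55 and 1.73 RPKM.

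The highest ratios were in Slc44a5, a choline transporter-like gene, with 93 and 9 reads and a log2 ratio of 2.98 (2.06 to 4.22), and in Dab1, with 134 and 22 reads over the 111604-base intron (2.26, 1.63 to 3.01). March1, a membrane-bound ubiquitin ligase gene, had 107 and 18 reads (2.22), and Megf11, a gene of an EGF-repeat membrane protein, 118 and 23 (2.01). C530008M17Rik followed at 1.91 (1.74 to 2.09). Its mm9 gene level was 10.02 RPKM in the first value and 5.94 in the second. March1 stood at 0.266 and 0.224 RPKM and Megf11 at 0.338 and 0.365 RPKM.

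On mm10, where levels belong to labelled replicates, 1 of 553 hosts at 1 TPM or more in both (0.181%) was at least 2-fold higher in replicate 1 than in replicate 2 and 52 (9.40%) were lower. Over 14241 genes at that level 3.69% were higher and 5.89% lower. The median log2 ratio of replicate 1 over replicate 2 was −0.21 over hosts and −0.11 over all these genes.

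Neurexins, neuroligins and contactins, which pair across synapses and along axons, had 35 long introns in 11 of 22 genes, with a median of 14 reads. Nrxn3, a neurexin gene, had 46 and 38 reads over 336713 bases and Nlgn1 had 57 and 13. Of 15 with at least 20 reads, 2 were higher and 6 lower in the first value.

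Immunoglobulin and IgLON adhesion genes had 23 long introns in 14 of 20 genes, with a median of 48 reads. Cadm1, a homophilic adhesion protein gene, had 733 and 329 reads over 257465 bases, and Alcam, another of the family, had 524 and 357 over 142480 bases. The long introns of Cadm1 and Alcam are first introns with no annotated alternative. In this list 2 of 18 were higher and 6 lower in the first value.

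Axon guidance genes had 28 long introns in 19 of 29 genes, with a median of 92 reads, the highest of the 10 lists. Ntn1, the netrin that attracts commissural axons, had 459 and 351 reads over 107491 bases. The Slit receptor gene Robo1 had 349 and 248 over 162177 bases, and Epha3, an ephrin receptor gene, had 247 and 371 over 119331 bases. Before scaling, Ntn1 and Robo1 thus had more reads in the first value and Epha3 in the second. The first value also had more reads over all annotated junctions, at 68994938 against 55259458. Of 22 in this list, 3 were higher and 3 lower.

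Cadherins, protocadherins, teneurins and latrophilins had 46 long introns in 16 of the 27 genes found in the annotation, with a median of 21.5 reads. Cdh2 led, followed by Tenm3, a teneurin, with 48 and 140 reads over 137907 bases, and Cdh8, a cadherin of neurons, with 126 and 58 over 121024. Of 25, 3 were higher and 7 lower in the first value, and Tenm3 was among the lower ones.

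Ion channels and transmitter receptors had 59 long introns in 31 of 39 genes, with a median of 16 reads. Grik2, a kainate receptor subunit, had 290 and 82 reads over 101009 bases, 4.54 times its other junctions. The calcium channel subunit gene Cacna2d1 had 87 and 83 over 137127 bases and the glutamate receptor gene Gria4 had 81 and 76 over 126948. Before scaling, the values of Cacna2d1 and Gria4 were nearly equal, while Grik2 had over 3 times as many reads in the first value. Of 23 in this list, 4 were higher and 7 lower.

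Scaffold and cytoskeletal genes had 70 long introns in 22 of 32 genes, with a median of 21.5 reads. Ctnna2 had 4, of which the 133029-base intron had 802 and 270 reads and the 105224-base intron 431 and 359. Dclk1, a doublecortin-like kinase of microtubules, had 358 and 286 over 124569 bases, and the delta catenin gene Ctnnd2 had 113 and 113 over 138327. After scaling by summed reads this list had 9 of 35 higher and 5 lower in the first value. Over all annotated junctions the shares were 8.67% and 23.6%. The 133029-base intron of Ctnna2 was among the higher ones.

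Transcription and chromatin factors had 57 long introns in 26 of 51 genes, with a median of 57 reads and a median ratio to the host of 0.479. Pbx3, a TALE homeodomain partner of Hox proteins, had 677 and 370 reads over 146177 bases and Mllt3, a super elongation complex gene, had 570 and 226 over 151375. Most members had fewer reads than the rest of their gene, whereas Pbx3 and Mllt3 stood above it, at 1.76 and 2.12 times. Of 41, 4 were higher and 8 lower in the first value.

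RNA-binding and splicing factors had 20 long introns in 10 of 20 genes, with a median of 70.5 reads and the lowest median ratio of the lists, 0.447. Next to Msi2 stood Celf4, a neuronal CELF protein gene, with 885 and 245 reads over 141657 bases, and Rbms1 with 101 and 361 over 120218. Celf4 was more than 2-fold higher in the first value and Rbms1 more than 2-fold lower. Of 13, 1 was higher and 4 were lower.

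Kinases, phosphatases, phosphodiesterases and GTPase regulators had 81 long introns in 37 of 47 genes, with a median of 35 reads. Srgap3, a GTPase-activating gene of the Slit-Robo pathway, had 243 and 243 reads over 116798 bases. Dock1, a Rac exchange factor gene, had 72 and 235 over 114206 bases. Srgap3 had the same reads in both values before scaling, and Dock1 was lower in the first by over 2-fold after scaling. Of 49, 7 were higher and 11 lower.

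Glypicans, heparan sulphate enzymes and matrix genes had 19 long introns in 11 of 24 genes, with a median of 74 reads. After Gpc3 came Ext1, which polymerises heparan sulphate, with 335 and 578 reads over 236830 bases, and the glypican gene Gpc6 with 507 and 169 over 248831. The 4 long introns of Gpc6 differed in direction, since those of 260566 bases (125 and 228 reads) and 245802 bases (77 and 170) had more reads in the second value and that of 188341 bases (169 and 121) in the first. Gpc3 was 1.73-fold higher in the second value after scaling. Of 15, 2 were higher and 5 lower.

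RNA from inside the long introns was present as well. The deposited contigs are stretches of mm9 with continuous read coverage pooled over both samples. With annotated exons removed from the contigs, they lay on the strand of the host over 49.9% of the bases of long introns. Long introns that overlap were each counted in full, here and in the counts by intron, and exons inside an intron stayed in its length. On the opposite strand they lay over 1.39%. In introns of 50 to 100 kb the shares were 56.3% and 2.16%. The cover went with junction reads, since the median long intron was under same-strand contigs over 15.6% of its length in the 326 introns with 1 to 9 reads, 50.5% in the 526 with 10 to 99 and 86.2% in the 309 with 100 or more.

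This cover fell along the intron. In the 10% of the long intron next to the donor 59.2% of bases lay under same-strand contigs, and in the 10% next to the acceptor 33.4%. Introns of 50 to 100 kb showed 63.1% and 47.5% at the same places. With the intron split at its middle, the donor side had more cover than the acceptor side in 996 of 1161 long introns (85.8%), less in 126 and the same in 39, which held no such contig. At 50 to 100 kb it had more in 77.6%. On the opposite strand the donor side had more in 54.4% of long introns.

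Among the introns with the fullest cover were those of the neural bHLH gene Tcf4, with 99.7% of 112717, Msi2, with 99.5% of 110000, Nfia, with 99.4% of 172760, and Npas3, with 99.3% of 105597. Contigs can also come from unannotated exons or genes inside an intron, and their share in the cover was not tested.

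**Figure D5:**
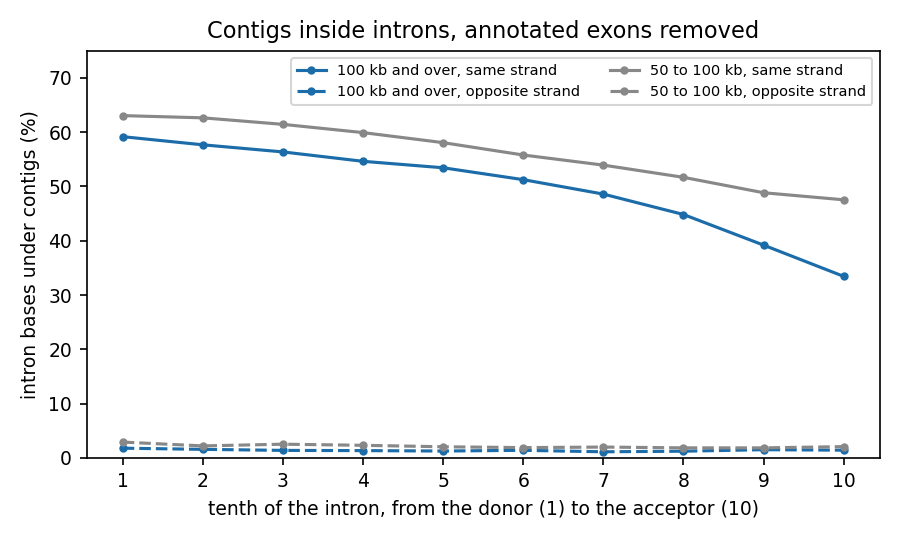
Percent of intron bases under contigs on the same strand as the host (solid) and on the opposite strand (dashed), in 10 equal bins of the intron from the donor to the acceptor, for introns of 100 kb and over (blue) and of 50 to 100 kb (grey). Cover on the same strand was lower in each bin than in the one before it, with 59.2% in the bin at the donor and 33.4% in the bin at the acceptor of the long introns, while the opposite strand stayed between 1.11 and 1.78%.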

How the data were processed

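Junctions were read from the deposited mm9 junction list, in which the authors give a count of reads per junction from each sample; its score columns were not used. Deposited mm9 gene levels are RPKM on Ensembl 65 models, per the file headers, each gene standing there in 2 rows with identical values, which were merged (74620 rows, 37310 genes). Introns were built from the deposited mm9 exon table. The authors' mm9 contig list gives stretches of coverage signal pooled over both samples, of which positions were used. The deposited mm10 tables give expected counts and TPM per gene and labelled replicate, and TPM was used. Aligner, intron limit and quantifier: not given in the sources used here.

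Log2 ratios are first over second value with a pseudocount of 0.5, scaled by reads over all annotated junctions. Fold intervals are exact 95% binomial. Only differences of at least 2-fold at 20 reads were counted. Ratios to the host used the median of at least 3 other listed annotated junctions, extremes among hosts with a median of 20 reads, and replicate extremes 100 reads. Joints were found by transcript identifier and identical intron length in GENCODE M21, and codon phase only where the coding start is complete. Contigs were intersected in bedtools 2.31.1, the rest run in Python 3.11.15 with pandas 2.3.3, numpy 2.4.6 and scipy 1.17.1, tested on simulated data.

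The rule named the 10 introns with most reads, the 10 longest, the 12 hosts with most members, the 5 highest and 5 lowest ratios between values and to the host, 3 genes per list and 3 introns each side of the threshold. Some genes that this rule names are left out here. Other genes named were chosen after their values were seen. Members and lists were chosen with earlier results of these data known. The samples are separate biological replicates per the labels.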

Additional observations from a re-analysis of the deposited data

Results flagged for a closer look

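Junctions marked as unannotated fell outside the comparisons above. Some of them pair up to an exon inside a long intron: 1 joins the donor of the long intron to a point inside it and another joins a point 20 to 500 bases further on to its acceptor, each with at least 5 reads in both values. This gave 13 distinct exons of 24 to 173 bases in 13 host genes, of which 6 are a multiple of 3 bases long, with a median of 93 bases. Such exons stood out because the annotation used for the report holds no exon there. The inclusion share is the mean of the reads over the joining junctions as a percent of that mean plus the reads that skip the exon.

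The exon with the most reads lies in the 132836-base intron of Gm38393, at chr7:67216771-67216874, with 104 bases and 598 reads over its joining junctions. Its share was 77.0% in the first value and 84.4% in the second, so it was included more often than skipped in both. The 78-base exon in the intron of Nsmce2, at chr15:59328332-59328409, had 456 reads. Its shares, 15.2% and 15.3%, were almost equal. The 113-base exon of 2610307P16Rik lies in 2 overlapping long introns. It had 182 reads with shares of 45.3% and 65.2% in the 103914-base intron, and 168 reads with shares of 94.4% and 84.9% in the 102624-base intron. The 48-base exon of Mir99ahg, a microRNA host gene, had 111 reads with shares of 56.1% and 64.7%. The 2 introns of 2610307P16Rik share their donor, and its junction to the exon, with 36 and 79 reads, counts in both shares. Only 2 and 9 reads skip the exon over the shorter intron. The shares of the 2 introns are thus not separate measurements and were not compared. In Mir99ahg the second value had the higher share. Positions are on mm9, and whether later annotations hold these exons was not tested.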

How the results depend on the processing

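Of 30 alternative settings 22 moved a value by more than the range between the samples or by over 1.5 times, and 8 did not. No value carries a test. There were 3473 junctions at a threshold of 50000 bases and 253 at 200000. With at least 10 reads asked of each value, 594 long introns counted as seen in both. Median reads were 27.0 to 31.5 with either value left out and scaled to both, and 46 over introns seen in both. The median ratio to the host was 0.713 to 0.742 with either value left out, 0.676 against other junctions under 10000 bases, 0.643 against their mean, 0.692 in hosts with a median of at least 10 reads, and 1.00 when annotated introns without reads counted as 0 (1.12 at 1 to 10 kb), a setting chosen after the data were seen. The median share at alternative sites was 35.7 to 35.8% with either value left out, 34.8% at sites with 20 reads, and 73.8% with unannotated junctions counted, which adds introns with no annotated alternative. The SD over long introns of the log2 ratio of the values was 1.29 at 10 reads, 1.01 at 50 and 1.12 with a pseudocount of 1. At 50 reads 148 introns differed by 2-fold, a count without the share over all annotated junctions beside it. The share of hosts at the level threshold was 37.6 to 42.6% with either value left out, 84.4% at 0.1 RPKM, 4.72% at 5 RPKM and 8.74% for assembled models spanning 824 of the introns. No paired analysis was possible because there is 1 group. Depth limits the 326 long introns with 1 to 9 reads, whose ratios and shares are uncertain.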
